A study of Mus musculus with 10 samples.

Results

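Haemoglobin and erythroid genes were examined in cells sorted out of mouse midbrain. The mice had been treated with MPTP, a toxin that kills dopaminergic neurons, and had received bone marrow cells on one side over the substantia nigra 3 days after the last dose. The set holds 8 genes, namely the globins Hba-a1, Hbb-b1 and Hbb-bh1, the haem enzyme Alas2, the membrane protein Slc4a1, the transcription factors Gata1 and Klf1, and the receptor Epor. Each gene had 1 probe that carried its name in the array annotation and was not a control, so the set is 8 of the 21547 named genes and 8 of the 55681 probes. Of these, 7 were well above background on at least 2 of the 10 arrays and entered the tests, in which 49995 probes were fitted. The Hbb-b1 probe was well above background on 0 of 10 arrays and was not tested.

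The grafted cells were haematopoietic stem and progenitor cells, enriched by removing bone marrow cells that carry lineage markers, and cells were sorted 1 week after the graft. Hybrids were cells with both red and yellow fluorescence (RFP+YFP+), in which a graft cell had fused with a recipient cell. Unfused cells were red only (RFP+). Each of the 5 groups had 2 replicates, and each replicate pooled cells of 2 mice. All groups received both MPTP and a graft, so no group shows the midbrain or the donor cells without either.

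The R26Y hybrids came from recipients with a yellow reporter that Cre switches on, grafted with cells carrying Cre and RFP. The GFAP-Cre hybrids came from recipients that express Cre under the astrocyte promoter of GFAP, grafted with cells carrying the R26Y reporter. Both were set against a pool of red-only cells of R26Y and GFAP-Cre recipients, called pooled unfused cells here, which shared their slide (slide 1, 6 arrays). The FoxA2-Cre hybrids came from recipients with Cre driven by FoxA2, a gene of midbrain floor plate and dopaminergic cells, grafted with R26Y cells. They were set against unfused cells of FoxA2-Cre recipients on slide 2 (4 arrays). In the Cre recipients, yellow marks only fusion with a cell that expresses Cre, so red-only cells there can include graft cells fused with other cells. Recipient line and slide cannot be told apart between the slides, and on slide 2 hybrids and unfused cells also lay in different rows. The file of FoxA2-Cre unfused replicate 2 carries in its name a number that the labels give to R26Y hybrid replicate 2. It was used here under the sample to which it was assigned.

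Red cells are made in the bone marrow from progenitors in which Gata1 and Klf1 switch on the globin genes, the enzymes of haem synthesis and the red cell membrane. Erythropoietin, bound by the receptor Epor, keeps these progenitors alive. Adult mouse haemoglobin pairs alpha globin, made from Hba-a1 and Hba-a2, with adult beta globin, while Hbb-y and Hbb-bh1 belong to the embryo. Low amounts of alpha and beta globin RNA have also been described in midbrain dopaminergic neurons and in glia. In bulk samples such as these, fewer cells of a type and less RNA per cell cannot be told apart.

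The probe sequences are shown for the genes on which the results turn. They are those of the array files and read 5′ to 3′ along the transcript. Positions are on mouse build mm9, where the Hbb-b2 probe was unmapped. Where a probe may lie in the untranslated end of the transcript, only its last 30 of 60 bases are given. Capitals in the Hba-a1 and Hbb-b2 probes mark the codons around the distal histidine of the haem pocket, a stretch found in 12 of the 55681 probes. Capitals in the Gata1 and Hba-a2 probes mark AATAAA, the polyadenylation signal. AATAAA or ATTAAA, searched on the transcript strand, stands in 1 of the 8 probes of the set, that of Gata1, and in 13.7% of all probes.
Hba-a1: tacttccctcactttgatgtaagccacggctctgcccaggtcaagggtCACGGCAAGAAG
Alas2: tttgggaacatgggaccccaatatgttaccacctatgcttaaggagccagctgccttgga
Hbb-b1: tatgtcccctagagaaaaactgtcaattgt
Hbb-bh1: atgtgtctatgatgccctctttgagtccat
Slc4a1: gttttgggcacaccccatcctctcctgcct
Gata1: tttggttaAATAAAtgtcagtgtcaagtgg
Klf1: tatagtcctacccagatcaaaaactgacca
Epor: cagagctgaccttggccctctgagcaggaa
Hba-a2: gtctttgAATAAAgcctgagtaggaagaag
Hbb-b2: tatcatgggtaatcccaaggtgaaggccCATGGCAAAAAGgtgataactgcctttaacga
Hbb-y, probe 2: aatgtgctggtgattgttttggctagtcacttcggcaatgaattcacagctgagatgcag
Hbb-bh2, probe 1: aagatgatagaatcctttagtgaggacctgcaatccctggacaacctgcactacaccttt

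The probes of the set lie at chr11:32183955-32184014 (Hba-a1, plus strand), chr7:110961105-110961164 (Hbb-b1, minus strand), chr7:110990209-110990268 (Hbb-bh1, minus strand) and chrX:147004993-147005052 (Alas2, plus strand). Those of the other members lie at chr11:102210256-102210315 (Slc4a1, minus strand), chrX:7536392-7536451 (Gata1, minus strand), chr8:87428881-87428940 (Klf1, plus strand) and chr9:21763422-21763481 (Epor, minus strand). Exon and UTR annotation of this build was not used here. The Hba-a1 probe is annotated to 2 RefSeq transcripts, one of Hba-a1 and one of Hba-a2, so RNA of these near-identical genes cannot be told apart with it. The transcript of the Hbb-b1 probe is named Hbb-bt in the RefSeq table of assembly GRCm38, where the beta globin genes of different mouse strains have separate names. The GC content of the 8 probes ran from 35.0% for Hbb-b1 to 55.0% for Hba-a1, against a median of 43.3% over all probes.

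Levels are given as scaled log2 signal, that is log2 of the processed intensity, scaled by subtracting each array's own 75th percentile over the 9510 spots well above background on all 10 arrays. A level of 0 thus lies at the 75th percentile of those spots, and lower levels are negative. Levels are compared between arrays for 1 probe, not between probes. A probe counts as well above background where the scanner software marked it so. Over the 10 arrays, 19.8% to 86.7% of gene spots were well above background, and the 4 FoxA2-Cre arrays had the lowest shares.

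Detection of the erythroid probes moved with this share. In R26Y hybrids, 7 members were well above background on replicate 1 and 4 on replicate 2, where 84.1% and 64.3% of spots were. In GFAP-Cre hybrids, 7 members were detected on each array, with 81.4% and 82.4% of spots. In the pooled unfused cells, 7 members were detected on each array, with 82.8% and 86.7% of spots. The member missing on all 5 fuller arrays of slide 1 was Hbb-b1.

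On slide 2, FoxA2-Cre hybrids had 2 and 1 members well above background, with 34.6% and 19.8% of spots. FoxA2-Cre unfused cells had 4 and 1 members, with 49.2% and 34.8% of spots. Slc4a1 was the single member detected on all 10 arrays.

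**Figure D1:**
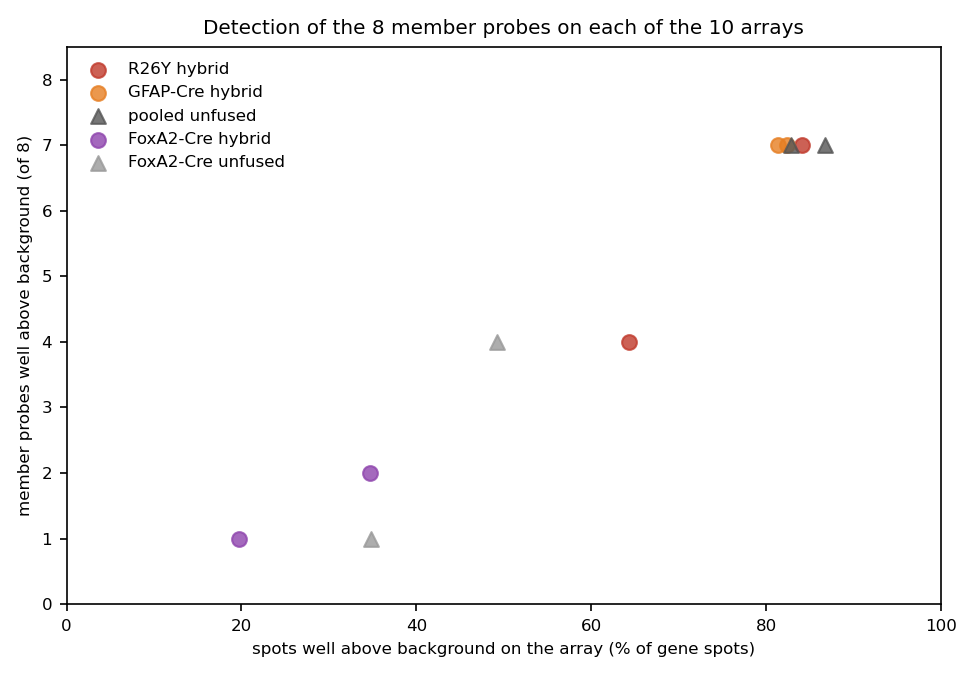
Number of the 8 member probes well above background (y axis) against the percent of gene spots well above background on the same array (x axis), 1 point an array, with circles for hybrids and triangles for unfused cells. The 5 arrays above 80% have 7 members each, R26Y hybrid replicate 2 at 64.3% has 4, and the 4 FoxA2-Cre arrays, at 19.8% to 49.2%, have 1 to 4.

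The alpha globin probe Hba-a1 was well above background on every array of slide 1, in hybrids and in unfused cells. On these arrays 64.3% to 86.7% of all gene spots were so too. On slide 2 it was above background on replicate 1 of each group only. Hba-a1 had levels of -4.20 and -3.10 in R26Y hybrids and -3.52 and -3.99 in GFAP-Cre hybrids, against -4.33 and -3.94 in pooled unfused cells. The hybrid values reach higher than the unfused ones but the ranges overlap in both comparisons. On slide 2, Hba-a1 had -3.38 in FoxA2-Cre hybrid replicate 1, against -4.27 in FoxA2-Cre unfused replicate 1. Replicate 2 of each of these groups, at -5.54 in hybrids and -6.56 in unfused cells, was not well above background. The hybrid minus unfused difference was 0.49 (95% interval -1.77 to 2.74) for R26Y, 0.38 (-1.88 to 2.64) for GFAP-Cre and 0.96 (-1.30 to 3.21) for FoxA2-Cre on the log2 scale.

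A probe named for Hba-a2, the other adult alpha globin gene, was also well above background on 8 of 10 arrays. It too is annotated to 2 RefSeq transcripts, and the Hba-a1 probe cannot tell these genes apart. The 2 probes thus do not read 2 genes separately. Hba-a2 had levels of -4.50 and -3.19 in R26Y hybrids and -4.49 and -4.29 in GFAP-Cre hybrids, against -4.47 and -4.05 in pooled unfused cells. In both alpha globin probes R26Y hybrid replicate 2 was the highest array of slide 1. On slide 2, Hba-a2 had -1.71 and -5.41 in FoxA2-Cre hybrids, against -2.76 and -4.40 in FoxA2-Cre unfused cells. Both replicate 2 arrays were not well above background, as with Hba-a1.

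The Hbb-b1 probe of adult beta globin was not detected on any array. The processed signal of Hbb-b1 ran from 3.14 to 17.1 intensity units over the 10 arrays, with a median of 4.1, while the median of the negative control spots ran from 3.23 to 4.27. The highest value was that of GFAP-Cre hybrid replicate 1. With both groups of each comparison below background, no fold is given for Hbb-b1. Hbb-b2, a second adult beta globin gene whose probe was unmapped on mm9, was well above background on 3 of 10 arrays. These were R26Y hybrid replicate 1 at -6.43, GFAP-Cre hybrid replicate 1 at -6.22 and pooled unfused replicate 2 at -6.27, so Hbb-b2 was detected in both hybrid groups and in the unfused cells of slide 1, on 1 array of each.

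Hbb-bh1, an embryonic beta-like globin, was detected on 5 of the 6 arrays of slide 1 and on no array of slide 2. It had levels of -4.44 and -6.47 in R26Y hybrids and -3.36 and -5.97 in GFAP-Cre hybrids, against -4.41 and -4.55 in pooled unfused cells. The value of -6.47 was not well above background. The GFAP-Cre hybrids lay on either side of the unfused pair, while R26Y hybrid replicate 1 lay between the unfused arrays and replicate 2 below both. Hybrid replicates were 2.03 apart in R26Y and 2.61 apart in GFAP-Cre cells, against 0.14 in unfused cells. The differences were -0.98 (95% interval -3.34 to 1.39) for R26Y hybrids and -0.19 (-2.55 to 2.17) for GFAP-Cre hybrids.

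Alas2, the erythroid form of the first enzyme of haem synthesis, was detected on the same 5 arrays. It had levels of -5.73 and -6.70 in R26Y hybrids and -5.17 and -6.38 in GFAP-Cre hybrids, against -6.68 and -5.80 in pooled unfused cells. The hybrid and unfused arrays interleave. The differences were 0.03 (-1.92 to 1.98) for R26Y hybrids and 0.47 (-1.49 to 2.42) for GFAP-Cre hybrids. On slide 2 the processed signal of Alas2 was 3.4 and 4.0 units in FoxA2-Cre hybrids, against 2.8 and 4.4 units in FoxA2-Cre unfused cells, all not well above background.

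Slc4a1, the band 3 anion exchanger of the red cell membrane, was measured on every array. It had levels of -2.21 and -3.50 in R26Y hybrids and -2.28 and -3.29 in GFAP-Cre hybrids, against -2.26 and -2.83 in pooled unfused cells. In each hybrid group of slide 1, replicate 1 matched the higher unfused array and replicate 2 lay below both. On slide 2, Slc4a1 had -3.31 and -2.97 in FoxA2-Cre hybrids, against -2.75 and -2.48 in FoxA2-Cre unfused cells, and here the 2 groups did not overlap, although with normexp background correction the FoxA2-Cre difference turned to 0.18. The differences were -0.31 (-1.82 to 1.20) for R26Y, -0.24 (-1.75 to 1.27) for GFAP-Cre and -0.52 (-2.03 to 0.99) for FoxA2-Cre hybrids.

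Gata1, which drives the erythroid and megakaryocyte programmes and is also used by mast cells, was detected on all 6 arrays of slide 1. Its levels were -5.61 and -6.24 in R26Y hybrids and -3.79 and -6.34 in GFAP-Cre hybrids, against -5.90 and -5.90 in pooled unfused cells. GFAP-Cre hybrid replicate 1 stood 1.82 above the next array of the slide, while its partner was the lowest. On slide 2, Gata1 was -5.48 and -4.14 in FoxA2-Cre hybrids, neither well above background, against -3.47 and -6.54 in FoxA2-Cre unfused cells, of which the first was. The differences were -0.03 (-2.74 to 2.68) for R26Y hybrids and 0.83 (-1.87 to 3.54) for GFAP-Cre hybrids.

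Klf1, the factor that activates adult beta globin, had the widest gap between replicates in the set. Its levels were -4.27 and -8.24 in R26Y hybrids and -4.98 and -5.11 in GFAP-Cre hybrids, against -4.80 and -5.77 in pooled unfused cells. R26Y hybrid replicate 1 was the highest array of slide 1 and replicate 2, not well above background, was the lowest, 3.97 apart. The difference was -0.97 (-3.59 to 1.65) for R26Y hybrids and 0.24 (-2.38 to 2.86) for GFAP-Cre hybrids. Without R26Y hybrid replicate 2 the R26Y difference was 1.02. Without replicate 1 Klf1 was called lower (limma adjusted p 0.0403), but the value of -2.95 then rests on 1 array that was not well above background and is assumed to vary like the other groups, and 3878 of all probes were called in the same fit. Klf1 was not well above background on any slide 2 array.

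Epor had the closest agreement between the arrays of slide 1. Its levels were -3.49 and -4.14 in R26Y hybrids and -3.46 and -3.91 in GFAP-Cre hybrids, against -3.84 and -3.65 in pooled unfused cells. The 6 arrays lay within 0.68 of each other. The differences were -0.07 (-1.41 to 1.27) for R26Y hybrids and 0.06 (-1.28 to 1.40) for GFAP-Cre hybrids, so the GFAP-Cre interval reaches 2.64-fold above and 2.43-fold below the level of unfused cells. On slide 2, Epor was -6.27 and -5.46 in FoxA2-Cre hybrids, neither well above background, against -4.36 and -4.99 in FoxA2-Cre unfused cells, of which the first was.

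For Epor and Gata1 in FoxA2-Cre cells the unfused mean lay below the lowest level that counts as above background on the hybrid arrays, which averaged -4.25, so no fold is given. For Hbb-bh1, Alas2 and Klf1 both FoxA2-Cre groups were below background. In the FoxA2-Cre comparison Slc4a1 alone was above background on all 4 arrays. The difference of Hba-a1 averages both replicates, although both replicate 2 arrays were at background. Before scaling, the processed signal of Hba-a1 on replicate 1 was 38.4 units in hybrids and 39.0 in unfused cells. On replicate 2 it was 3.8 and 4.1 units, so the higher hybrid levels appear only after scaling.

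**Figure D2:**
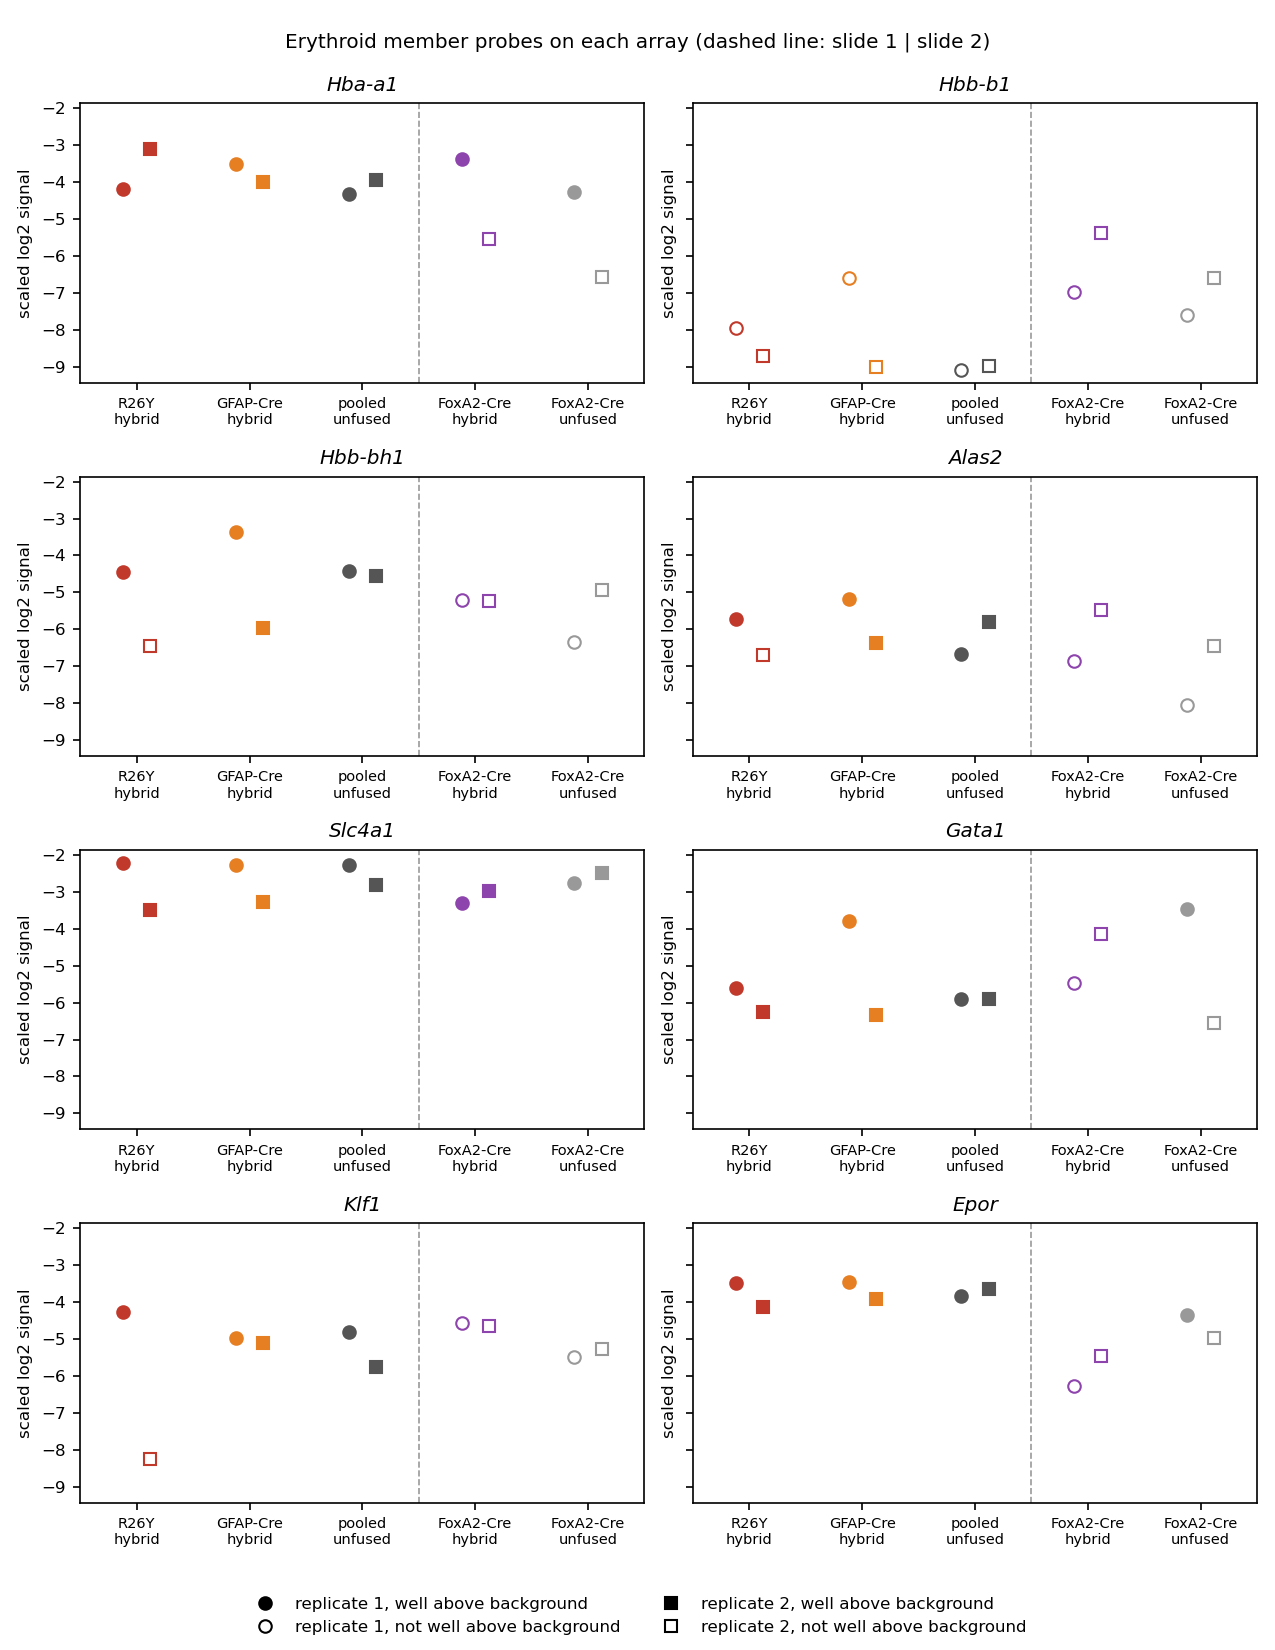
Scaled log2 signal (y axis) of the 8 member probes on each of the 10 arrays, by group (x axis), with circles for replicate 1 and squares for replicate 2, filled where the probe was well above background. Hbb-b1 is open on every array, Slc4a1 is filled on every array, and Klf1 in R26Y hybrids has its replicates at -4.27 and -8.24.

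None of the 7 tested erythroid probes passed the test between hybrid and unfused cells. In the fit of all probes with limma (moderated linear model, two-sided, Benjamini-Hochberg adjustment over 49995 probes, threshold 0.05), 0 of 7 members passed for R26Y hybrids, where 0% of all probes did. For GFAP-Cre hybrids 0 of 7 members passed, where 0% of all probes did. For FoxA2-Cre hybrids 0 of 7 passed, where 0.344% of all probes (172) did. At an unadjusted p under 0.05 the count was 0 of 7 in each of these comparisons, where 1.56%, 1.96% and 7.64% of all probes passed.

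The lowest adjusted p in the set was 0.664 in limma, for Epor in the FoxA2-Cre comparison, in which the hybrid arrays were below background. Counted without a test, the 2 groups did not overlap for 0 of 7 members in R26Y hybrids, where 29.8% of all probes did not. In GFAP-Cre hybrids this was 0 of 7, where 34.7% of all probes did not overlap. In FoxA2-Cre hybrids it was 3 of 7, namely Slc4a1 and Epor lower and Klf1 higher, where 36.8% of all probes did not, and of these 3 only Slc4a1 was above background in both groups.

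The median difference over the 7 members was -0.07 for R26Y hybrids, beside -0.29 over all probes. It was 0.24 for GFAP-Cre hybrids, beside 0.04 over all probes. For FoxA2-Cre hybrids it was 0.42, beside 0.43 over all probes, with 5 of the 7 members resting on signal below background in at least one group. The members' medians thus lay within 0.22 of the shift of the whole array in each comparison.

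With slide as a covariate, all 6 hybrid arrays were set against all 4 unfused arrays. The highest difference was that of Hba-a1, at 0.66 (95% interval -0.63 to 1.95), with 4 of 6 hybrid arrays above the unfused mean of their slide. Alas2 had 0.61 (-0.55 to 1.77), again with 4 of 6 hybrid arrays above. The differences of Gata1, Klf1 and Hbb-bh1 were 0.31, 0.13 and -0.15.

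The 2 most negative differences were those of Epor, at -0.51 (-1.38 to 0.35), and Slc4a1, at -0.38 (-1.24 to 0.48), each with 2 of 6 hybrid arrays above the unfused mean of their slide. In limma 0 of 7 members passed (adjusted p 0.99975 for each), where 0% of all probes did. The interval for Slc4a1 reaches 1.39-fold above and 2.36-fold below the level of unfused cells. For the 5 members other than Hba-a1 and Slc4a1, the slide 2 values in this comparison are at background, apart from Gata1 and Epor in unfused replicate 1. Hba-a1 was at background on both replicate 2 arrays of slide 2, which also enter its difference.

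Whether the FoxA2-Cre hybrid effect differed from that of the other hybrids was tested as an interaction, and 0 of 7 members passed (limma, adjusted p 0.834 to 0.979), where 0.068% of all probes did. GFAP-Cre hybrids against R26Y hybrids gave 0 of 7 members (adjusted p 0.999643), where 0% of all probes passed. At an unadjusted p under 0.05 these counts, and that of all hybrids, were again 0 of 7, where 5.29%, 3.07% and 2.88% of all probes passed for the interaction, the GFAP-Cre against R26Y hybrids and all hybrids. A p that misses the threshold does not show that the groups were alike, and the widest interval in the 3 comparisons of hybrids with unfused cells, that of Gata1, spanned 5.41 on the log2 scale.

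**Figure D3:**
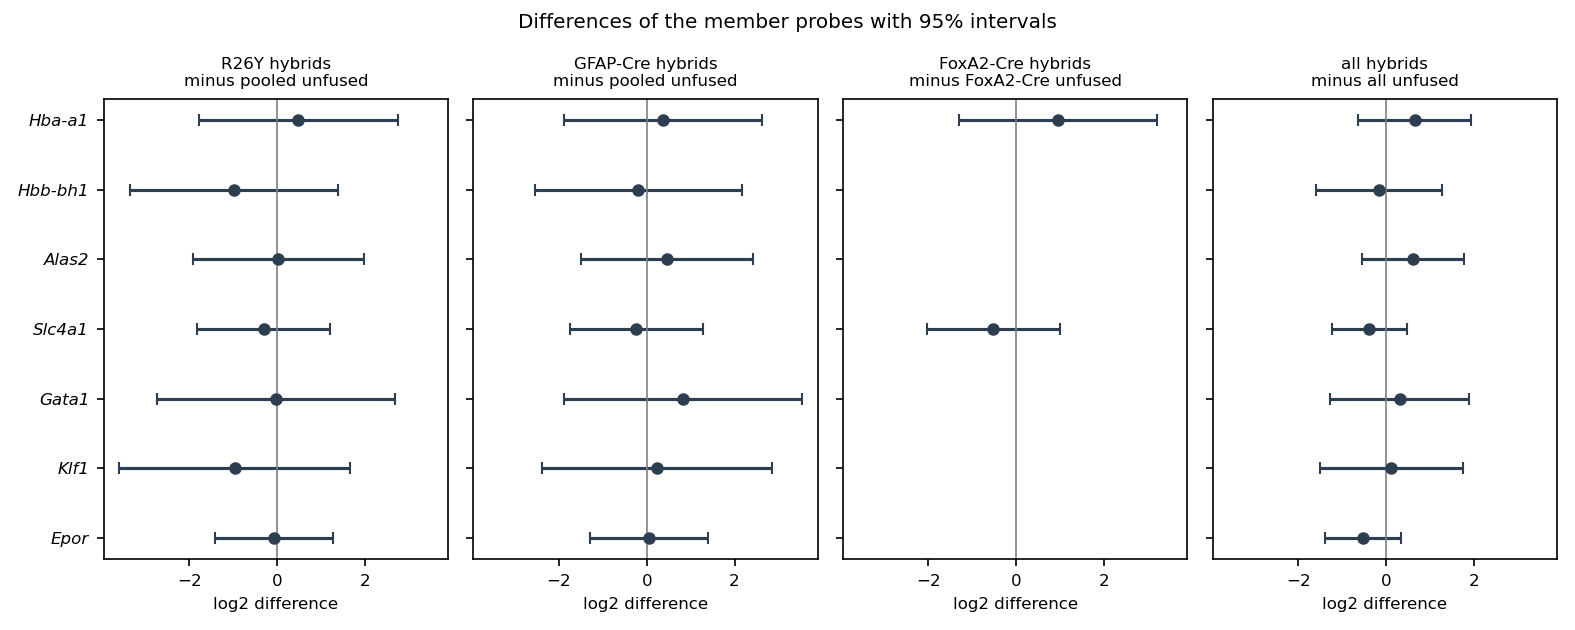
Log2 difference, hybrids minus unfused cells (x axis), of the member probes (y axis) with 95% intervals from limma, in 4 comparisons. Members at background in a group of a comparison are left out of it, which leaves Hba-a1 and Slc4a1 for FoxA2-Cre hybrids, and every interval crosses 0.

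Across the 10 arrays, each minus the mean of its slide, the 21 pairs of the 7 members had Pearson correlations from -0.52, for Hba-a1 with Slc4a1, to 0.74, for Hbb-bh1 with Slc4a1, with a median of 0.25. Hba-a1 correlated negatively with 5 of the other 6 members, the exception being Gata1 at 0.32. The points share slide and detection rate, so this is a description of these arrays. The genes most like Hba-a1 over the 10 arrays, among 21910 probes well above background on at least 5 arrays, were 2810004N23Rik (r = 0.977), Mylk3 (0.977) and Mylip (0.962).

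For Hbb-bh1 they were Gle1 (r = 0.987), Cacnb2 (0.974) and Ano3 (0.956), and for Alas2 they included Mgarp (0.965) and Shf (0.955). For Slc4a1 they were Cavin3 (0.945), Defb19 (0.945) and Mug1 (0.942), and for Gata1 Epb4.1l4b (0.951), Gprc5c (0.939) and Krtap5-5 (0.939). For Klf1 they were AY074887 (0.986), Trim61 (0.985) and F2rl1 (0.973), and for Epor Olfr1285 (0.981), Nppb (0.967) and Gm16367 (0.961). No named gene is on 2 of these lists.

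Other genes of the red cell programme were counted from 6 lists, of which 80 genes had a probe in the tables used here and 72 were tested. In limma 0 of 72 passed in each of the 6 comparisons, where 0% to 0.344% of all probes did. At an unadjusted p under 0.05, 1 of 72 passed in R26Y, in GFAP-Cre and in all hybrids, and 4 of 72 in FoxA2-Cre hybrids, against the 1.56%, 1.96%, 2.88% and 7.64% of all probes. Rhd, Aqp1, Tmod1 and Xk of the membrane list, and the early factor Gata2, were well above background on 0 of 10 arrays.

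The 11 further globin genes had a median difference of 0.08 in R26Y, 0.25 in GFAP-Cre and 0.35 in FoxA2-Cre hybrids, beside -0.29, 0.04 and 0.43 over all probes. The 12 genes of haem synthesis had medians of -0.28, 0.09 and -0.32 in the same order. Alas1, the enzyme that housekeeping haem synthesis uses in place of Alas2, was well above background on all 10 arrays. Alas1 had levels of -0.47 and -0.67 in R26Y hybrids and -0.31 and -0.87 in GFAP-Cre hybrids, against -0.32 and -0.48 in pooled unfused cells. In FoxA2-Cre hybrids Alas1 had -1.27 and -2.02, against -1.64 and -0.40 in FoxA2-Cre unfused cells.

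In that list, Slc25a38, the glycine carrier of erythroid mitochondria, lay between -3.02 and -1.26 in hybrids, against -1.91 to -1.57 in unfused cells. Ppox, the penultimate enzyme of the pathway, had levels of -4.01 and -3.15 in FoxA2-Cre hybrids, of which the second was not well above background, against -1.94 and -1.38 in FoxA2-Cre unfused cells. These groups did not overlap, and the difference of -1.92 (95% interval -3.20 to -0.63) did not pass over all probes (limma p 0.00892, adjusted p 0.472). On slide 1 the Ppox differences were 0.09 (-1.19 to 1.38) for R26Y and 0.04 (-1.24 to 1.33) for GFAP-Cre hybrids.

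Among the 12 tested genes of the membrane and skeleton, medians were -0.05, 0.09 and 0.63 for R26Y, GFAP-Cre and FoxA2-Cre hybrids. Epb4.9, the actin-bundling dematin, and Ermap, a blood group protein, each had a probe well above background on all 10 arrays and another that was not. The second Epb4.9 probe was not well above background on any array while the first lay at 4.45 to 7.24, so the gene's level is uncertain.

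For the 12 tested transcription factors and cofactors the medians were -0.56, -0.11 and 0.52. Zfpm1, the Gata1 cofactor FOG1, lay between -2.51 and -1.75 in hybrids, against -2.35 to -1.69 in unfused cells. Ldb1, which joins Gata1 and Tal1 in one complex, lay between -3.26 and -2.19 in hybrids, against -2.93 to -2.08 in unfused cells. Bcl11a, the repressor of embryonic globins, lay between -4.82 and -2.61 in hybrids, against -4.94 to -3.18 in unfused cells, at the brightest of its 3 probes. At these probes all 3 ranges overlap. Another Bcl11a probe was at 0.90 on FoxA2-Cre hybrid replicate 2, against at most -6.51 on the other arrays of slide 2. The level of Bcl11a there is thus uncertain.

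The 10 tested genes of erythropoietin signalling and iron had medians of -0.31, 0.02 and 0.49, and the 15 red cell enzymes and late genes had -0.07, -0.01 and 0.59. Epo itself, the ligand of Epor, was well above background on 7 of 10 arrays and lay between -5.99 and -3.27 in hybrids, against -5.58 to -3.99 in unfused cells. Steap3, the ferrireductase of erythroid iron uptake, lay between -1.16 and 0.97 in hybrids, against -1.15 to -0.18 in unfused cells. Hemgn, a nuclear protein of blood progenitors, had a probe well above background on all arrays, between 6.15 and 9.23 in hybrids and between 6.24 and 8.37 in unfused cells. This probe shares a run of at least 20 bases with a probe of another gene name, so its signal is uncertain as a level of Hemgn.

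R26Y hybrid replicate 2 stood apart in both probes of the embryonic globin Hbb-y. On that array 792 of 49995 probes (1.58%) were at least 8-fold above every other array of slide 1, against 1 to 27 probes on each of the other 5 arrays. Among 92 tested probes of the 6 erythroid lists, 5 were so on that array and 0 on the other 5 arrays of slide 1. These were both probes of Hbb-y, 1 probe of Hbb-bh2, Rhag and 1 probe of Stat5b. Each array of slide 2 also had 453 to 1459 such probes against its 3 slide partners, of which 1 to 3 an array were from the erythroid lists. None was a member of the set of 8.

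Hbb-y, the embryonic epsilon-type globin, had levels of -3.79 and -0.10 in R26Y hybrids and -3.63 and -4.30 in GFAP-Cre hybrids at its probe 2, against -4.0 and -3.80 in pooled unfused cells. At Hbb-y probe 1, R26Y hybrids had -5.89 and 1.5 and GFAP-Cre hybrids -7.71 and -9.63, against -6.19 and -5.43 in pooled unfused cells. The 2 probes lie 180 bases apart on chromosome 7 and both single out R26Y hybrid replicate 2, while its partner array lies with the unfused cells.

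Hbb-bh2, a beta-like globin gene next to Hbb-bh1, had levels of -0.31 and 3.60 in R26Y hybrids and -0.25 and -0.88 in GFAP-Cre hybrids at its probe 1, against -0.21 and -0.50 in pooled unfused cells. Hbb-bh2 probe 2, 330 bases away, had -5.67 and -6.52 in R26Y hybrids and -6.44 and -6.35 in GFAP-Cre hybrids, against -7.53 and -5.81 in pooled unfused cells. The probes of Hbb-bh2 disagree on R26Y hybrid replicate 2, so its level there is uncertain. Rhag, the ammonium channel of the Rh complex, had levels of -4.50 and 0.68 in R26Y hybrids and -3.73 and -4.42 in GFAP-Cre hybrids, against -3.88 and -4.33 in pooled unfused cells.

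Of the 8 members, Hba-a1, Slc4a1, Gata1 and Epor were well above background on R26Y hybrid replicate 2, with Hba-a1 the highest of slide 1 there, and Hbb-bh1, Alas2, Klf1 and Hbb-b1 were not. The embryonic alpha-type globin Hba-x was at -7.83 and not well above background on that array, and 3775 probes were at least 8-fold below every other array of slide 1. In limma none of the 72 genes, Hbb-y, Hbb-bh2 and Rhag included, passed for R26Y hybrids. The part of this array's lower detection in these values was not tested.

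**Figure D4:**
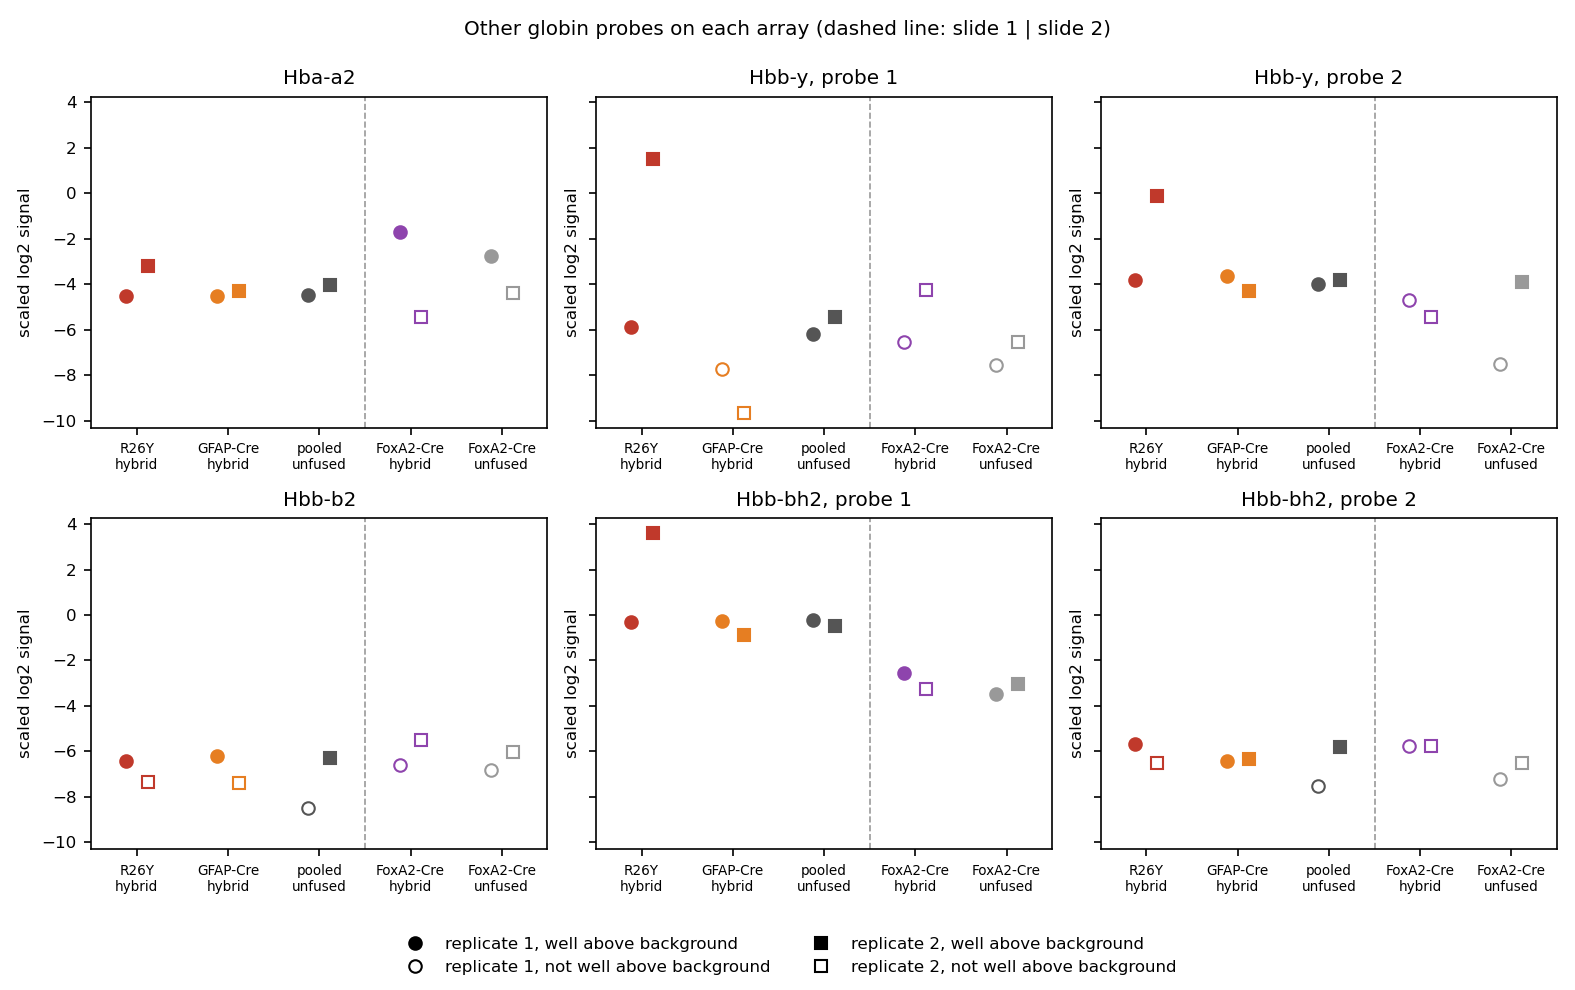
Scaled log2 signal (y axis) of 6 further globin probes on each of the 10 arrays, by group (x axis), with circles for replicate 1 and squares for replicate 2, filled where well above background. R26Y hybrid replicate 2 lies above the other arrays in both Hbb-y panels and in the panel of Hbb-bh2 probe 1, and not in those of Hbb-b2 or Hbb-bh2 probe 2.

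Markers of other cells that use some of these genes were read on the same arrays. Of 9 megakaryocyte and platelet genes, 5 to 6 were well above background in R26Y hybrids and 4 to 7 in GFAP-Cre hybrids, against 6 in pooled unfused cells. Their mean level ran from -5.42 to -4.97 and from -5.08 to -5.02 in these hybrids, against -4.90 to -4.76 in pooled unfused cells. On slide 2 it was 3 genes in FoxA2-Cre hybrids, against 4 to 5 in FoxA2-Cre unfused cells, with mean levels of -4.65 to -4.27 and -5.51 to -4.58. Of the defining genes, Itga2b was well above background on 10 of 10 arrays, Pf4 on 3, and Gp9 and Gp1ba on 0. Pf4 had levels of -0.68 and -5.34 in FoxA2-Cre hybrids, of which the first was well above background, against -7.59 and -6.57 in FoxA2-Cre unfused cells, which were not. On that first array 652 probes stood at least 8-fold above every other array of slide 2. Itga2b had -3.40 and -2.92 in FoxA2-Cre hybrids, against -2.18 and -3.25 in FoxA2-Cre unfused cells. Over the list, 3 of 7 tested genes had a positive FoxA2-Cre difference, with a median of -0.11 beside 0.43 over all probes.

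Of 9 mast cell and basophil genes, 3 to 8 were well above background in R26Y hybrids and 7 in GFAP-Cre hybrids, against 8 in pooled unfused cells, with mean levels of -7.05 to -4.37, -5.15 to -4.69 and -4.52 to -4.42. FoxA2-Cre hybrids had 1 on each array, against 1 to 3 in FoxA2-Cre unfused cells, with mean levels of -5.84 to -4.76 and -6.48 to -4.55. The low ends of both the count and the mean in R26Y hybrids were replicate 2. On that array 64.3% of all spots were well above background, and 3775 probes were at least 8-fold below every other array of slide 1.

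Of 8 markers of haematopoietic stem and progenitor cells, the grafted type, 7 were well above background in R26Y hybrids and 6 to 7 in GFAP-Cre hybrids, against 8 in pooled unfused cells, and 2 to 4 in FoxA2-Cre hybrids, against 4 in FoxA2-Cre unfused cells. Their mean level ran from -3.64 to -2.86 in FoxA2-Cre hybrids, against -5.02 to -4.29 in FoxA2-Cre unfused cells, with a median difference of 1.05 beside 0.43 over all probes. These means include genes at background. The lowest level that counts as above background was -5.02 and -3.47 on the hybrid arrays, against -5.99 and -4.90 on the unfused arrays. The part of this difference in background in the higher mean was not tested, so the mean alone does not show more marker RNA. Summed on the linear scale, these markers had 28.0 and 1.03 on the hybrid arrays, against 0.51 and 0.57 on the unfused arrays. The slide 2 means of the other marker lists also include genes at background. Of 8 dopaminergic neuron genes, 6 to 8 were in R26Y and 7 to 8 in GFAP-Cre hybrids, against 7 to 8 in pooled unfused cells, and 2 to 5 in FoxA2-Cre hybrids, against 5 to 7 in FoxA2-Cre unfused cells. Neutrophil genes were the one marker list with calls. Mpo and Camp, proteins of neutrophil granules, were lower in FoxA2-Cre hybrids by at least 60.5-fold for Mpo, which was below background there (limma adjusted p 0.0307), and Camp fell by 4.44 ± 0.64 on the log2 scale (SE, n = 2 a group, limma adjusted p 0.0422). Camp was well above background on 1 of the 2 hybrid arrays, and with background levels in place of lower values it was at least 21.8-fold lower in hybrids. Mpo and Camp have 2 probes each, and the values are those of the probe that was called. With each gene read at its brightest tested probe, 1 of the 11 tested neutrophil genes was called, so 1 of these 2 calls is not at the gene's brightest probe. With the arrays of slide 2 fitted alone, 0 probes of the whole table were called, these included. The part of these markers in the erythroid values was not tested.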

How the data were processed

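Per the labels' protocols, RNA of the sorted cells was amplified as whole-transcriptome cDNA, of which 500 ng received the dye Cy3 before hybridisation to Agilent mouse arrays of 1 colour. The deposited spot tables hold processed signal, mean signal and local background as intensities from Agilent Feature Extraction 10.7.3.1, per the file headers, with 0 or 1 marks for spots well above background or non-uniform. A deposited table of the authors' log2 values was used as an alternative, whose processing and scaling steps are not given in the sources used here; its column medians were 7.38 on slide 1 and 6.26 on slide 2.

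Levels were log2 processed signal minus each array's 75th percentile, without non-uniform spots. Probes well above background on at least 2 arrays were fitted with limma 3.58.1 in R 4.3.3, as 5 group means over all arrays, or with slide as covariate for all hybrids. Symbols of 27428 probes were updated through accessions of the GRCm38 RefSeq table. The members and gene lists were chosen with earlier results of these data known. Named genes of the lists were those past the threshold and the 3 with the highest mean level in each list, and some genes are not reported here. The file of each sample gave its group, and replicates share only a number. Nothing states that replicates are separate litters or days, so p-values measure the spread between these samples. That spread is 1 estimate a probe over all 10 arrays, so the intervals of 1 slide also carry the scatter of the other. In R26Y hybrids the SE of Hba-a1 was 0.98, against 0.56 with its slide fitted alone. That of Hbb-bh1 was 1.02, against 1.11.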

Additional observations from a re-analysis of the deposited data

How the results depend on the processing

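The number of member probes called was 0 in all 6 comparisons and stayed 0 in each comparison run under 14 other settings (the comparison's own slide alone was run for the 4 within a slide), namely normexp background, quantile scaling, a percentile over all spots, the authors' matrix, 2 other filters on dim probes, non-uniform spots kept, 1 probe a gene, shared probes left out, the comparison's own slide alone, array weights, a replicate block, slide row and slide column. Leaving out 1 array gave 0 to 1 for R26Y hybrids and 0 to 1 for GFAP-Cre against R26Y hybrids, and 0 for the other 4. The 1 was Klf1 without R26Y hybrid replicate 1, on a background of 3878 and 3624 probes called. Of 315 differences recomputed under the 14 settings, 25 changed sign, all without a call, and the causes were not tested. With normexp, R26Y hybrids had Gata1 0.0054, Klf1 0.26 and Epor 0.011, FoxA2-Cre hybrids had Slc4a1 0.18, and all hybrids had Hbb-bh1 0.24 and Epor 0.24. In R26Y hybrids, Slc4a1, Gata1 and Epor were 0.026, 0.30 and 0.26 with the percentile over all spots and 0.033, 0.42 and 0.33 with quantile scaling. The authors' matrix gave Gata1 0.042, Klf1 0.072 and Epor 0.18 there. With slide column, R26Y hybrids had Hba-a1 -0.64, Slc4a1 0.29 and Klf1 0.20, GFAP-Cre hybrids Hba-a1 -1.90, Slc4a1 0.17 and Gata1 -0.81, and all hybrids Hbb-bh1 0.13 and Gata1 -0.0088. With slide row, Gata1 was 0.45 in R26Y and Klf1 -0.72 in GFAP-Cre hybrids.

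Leaving out 1 array gave ranges that cross 0 for 17 of the 23 differences. In R26Y hybrids these were -0.061 to 1.03 for Hba-a1, -1.99 to 0.037 for Hbb-bh1, -0.46 to 0.51 for Alas2, -0.95 to 0.34 for Slc4a1, -0.35 to 0.29 for Gata1, -2.95 to 1.02 for Klf1 and -0.40 to 0.25 for Epor. In GFAP-Cre hybrids they were -1.49 to 1.12 for Hbb-bh1, -0.14 to 1.07 for Alas2, -0.74 to 0.26 for Slc4a1, -0.44 to 2.11 for Gata1, -0.24 to 0.72 for Klf1 and -0.17 to 0.28 for Epor. In FoxA2-Cre hybrids Hba-a1 ran from -0.19 to 2.10, and in all hybrids Hbb-bh1 from -0.49 to 0.13, Gata1 from -0.18 to 0.84 and Klf1 from -0.095 to 0.63. The other 6 kept their sign, namely Hba-a1 at 0.14 to 0.62 in GFAP-Cre hybrids, Slc4a1 at -0.69 to -0.35 in FoxA2-Cre hybrids, and in all hybrids Hba-a1 at 0.23 to 0.99, Alas2 at 0.26 to 0.91, Slc4a1 at -0.54 to -0.26 and Epor at -0.71 to -0.27. For Alas2 and Epor these ranges include FoxA2-Cre arrays at background, all of them for Alas2 and all but unfused replicate 1 for Epor.

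The 172 probes called over the whole FoxA2-Cre comparison became 0 to 216 under the other settings and 68 to 657 with 1 array left out, with 100 under the replicate block. Same-numbered arrays of different groups had deviation correlations of -0.082 to 0.058, and the block changed no member's call. These correlations run over all fitted probes, many of them dim on slide 2. They cannot settle whether same-numbered samples were paired. The median of all probes in R26Y hybrids was -0.29, against 0.04 with quantile scaling. In the FoxA2-Cre comparison, 5 of the 7 members lay below background in at least one group.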
